A study of Mus musculus with 27 samples.

Results

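The step from 10 to 30 μg/kg, the highest doses given of the dioxin 2,3,7,8-tetrachlorodibenzo-p-dioxin (here TCDD), was examined in colonic epithelium to find which responses still grew at the top dose and which had levelled off. The 3 mice labelled 30 μg/kg (mice 65, 66 and 67) were compared with the 3 labelled 10 μg/kg (mice 57, 58 and 59), 6 of the 27 male C57BL/6 mice of the series. The others received sesame oil vehicle (3 mice) or a lower dose of TCDD from 0.01 μg/kg upwards (18 mice, 3 a dose). Every mouse was gavaged 7 times, at intervals of 4 days, beginning at 28 days of age, and the tissue was taken at 56 days. The groups thus shared age, interval and number of gavages and differed in the labelled dose of TCDD. Cage, litter and order of processing are not given in the sample labels used here. RNA came from scrapings of the colonic epithelium, which can carry the tissue beneath it.

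TCDD binds the aryl hydrocarbon receptor (AhR), a transcription factor held in the cytosol by chaperones. Many genes under its direct control carry nearby dioxin response elements, DNA sites around the letters GCGTG, which the ligand-bound receptor occupies together with its partner ARNT. The receptor also binds sites that depart from this sequence. The best known targets encode the xenobiotic monooxygenases CYP1A1 and CYP1B1, the repressor AHRR, which competes with the receptor, and TIPARP, an ADP-ribosyltransferase that limits receptor activity. The colonic epithelium is renewed from crypt stem cells and holds absorptive colonocytes, mucus-secreting goblet cells, hormone-secreting enteroendocrine cells and chemosensory tuft cells.

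The bases before the starts of Cyp1a1, Cyp1b1, Ahrr and Tiparp are shown because these were the AhR target genes with the smallest p-values between the doses. Each run holds the 250 bases before the start given by RefSeq (GRCm38.p6), 5′ to 3′ on the strand of the gene, with every GCGTG on either strand (written CACGC where it lies on the other strand) in capitals. Cyp1a1 lies on the plus strand (chr9:57697363-57697612), Cyp1b1 on the minus strand (chr17:79715062-79715311), Ahrr on the minus strand (chr13:74292332-74292581) and Tiparp on the plus strand (chr3:65528197-65528446).
Cyp1a1: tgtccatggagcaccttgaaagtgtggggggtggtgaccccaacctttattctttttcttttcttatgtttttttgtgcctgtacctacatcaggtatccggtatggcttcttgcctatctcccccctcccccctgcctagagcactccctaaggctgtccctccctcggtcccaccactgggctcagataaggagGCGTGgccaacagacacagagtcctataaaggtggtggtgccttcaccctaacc
Cyp1b1: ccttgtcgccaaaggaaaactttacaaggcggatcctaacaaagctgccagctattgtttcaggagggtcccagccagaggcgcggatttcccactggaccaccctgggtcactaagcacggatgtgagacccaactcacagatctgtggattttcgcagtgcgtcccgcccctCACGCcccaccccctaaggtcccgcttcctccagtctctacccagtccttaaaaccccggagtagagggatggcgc
Ahrr: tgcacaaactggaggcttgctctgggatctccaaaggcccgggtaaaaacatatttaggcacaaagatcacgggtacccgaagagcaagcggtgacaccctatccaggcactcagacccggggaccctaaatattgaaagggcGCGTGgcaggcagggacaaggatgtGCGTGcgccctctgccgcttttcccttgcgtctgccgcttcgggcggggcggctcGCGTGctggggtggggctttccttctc
Tiparp: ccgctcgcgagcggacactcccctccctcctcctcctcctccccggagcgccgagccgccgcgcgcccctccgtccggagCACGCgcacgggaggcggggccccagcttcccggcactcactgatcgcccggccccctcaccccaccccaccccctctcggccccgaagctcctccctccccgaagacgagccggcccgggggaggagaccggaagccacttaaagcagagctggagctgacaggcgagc
The letters occurred 3 times before Ahrr and 1 time before each of Cyp1a1, Cyp1b1 and Tiparp. Of the 32851 RefSeq promoters of the same length 28.2% held them. Of the 11305 genes tested with a promoter among these, 48.1% held them in any of their promoters, a share of genes that is not comparable with a share of promoters. The 11305 are also too few of the 16496 tested for a check. Of the 10 genes of the AhR battery with a promoter there 5 held them, and none was found before Nqo1 or Acta1. A match is a description of the letters, not of a bound site.

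The 6 libraries were of similar depth, with 11534463 to 13887966 reads on genes. Barcodes in the names of the libraries recur in the series, and their first and second use are called here the first and second barcode set. No label gives these sets, and whether they match a run or pool is not known. All 6 libraries fell in the second set, so the contrast between the doses does not cross barcode sets. Epithelial markers were abundant, with a summed level of 10841 to 13659 CPM (reads of a gene scaled to the library's reads on genes) over 10 markers such as Epcam and Krt8, while of 9 markers of squamous epithelium 1 passed the filter on low counts, at no more than 1.88 CPM, and the other 8 had at most 10 reads in any of the 6 mice. Summed levels are over the genes of a list that passed the filter. The libraries differed in other tissue. Mouse 67 held the most muscle and fat RNA, 1425 CPM over 14 muscle markers against 476 to 763 CPM in the other 5 mice, and 914 CPM over 12 adipocyte markers against 366 to 458 CPM. Mouse 59 held pancreatic RNA, 1319 CPM over 10 acinar genes against 1.88 to 129 CPM, a list added after the libraries had been seen. A score from 25 Hox genes, which mark position along the colon, was 4.68, -3.20 and 3.85 in mice 57, 58 and 59 and 3.17, -0.012 and -0.44 in mice 65, 66 and 67, so that position differed more within the groups than between them. In whole scrapings, fewer cells of a type and less RNA per cell cannot be told apart.

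No gene passed the threshold between 30 and 10 μg/kg, which was an adjusted p under 0.05 in edgeR's quasi-likelihood test with a fold change of at least 1.5 (0% of the 16496 genes tested). The smallest adjusted p was 0.0566, held by Ahrr and Cyp1b1. At an unadjusted p under 0.05 there were 990 genes (6%), of which 588 were higher (3.56%) and 402 lower (2.44%) at 30 μg/kg. The count of 0 depended on the tool and on the libraries. DESeq2 called 4 genes (Ahrr, Cyp1b1, Acta1 and Gm12840) and limma voom 3 (Ahrr, Cyp1b1 and Acta1), while edgeR called 32 without mouse 65 and 1 (Ahrr) without mouse 67 or with a term for the barcode set.

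For most genes the data set a narrow limit on any further change. The 95% interval of the difference between the doses lay within 1.5-fold in either direction for 9295 genes (56.3%) and within 2-fold for 12726 genes (77.1%). The interval included 0 but reached past 1.5-fold for 6518 genes, for which a change of that size was not excluded with 3 mice a group. Ranges in parentheses after a log2 fold change are these 95% intervals. The median log2 fold change of all genes was 0.0064 and the median standard error 0.17.

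Cyp1a1, Cyp1b1 and Ahrr stood about 2-fold higher at 30 than at 10 μg/kg, and in each of them every mouse at the top dose lay above every mouse at the dose below. Cyp1a1 (chromosome 9, 57687928 to 57703824, plus strand) encodes the inducible monooxygenase commonly used as a readout of AhR activity. Its level was 1344, 896 and 1069 CPM in mice 57, 58 and 59 and 2106, 2427 and 2066 CPM in mice 65, 66 and 67. The groups did not overlap, and the log2 fold change was 1.00 (0.50 to 1.49), with an adjusted p of 0.426 in edgeR's test and of 0.0507 to 0.855 over the alternatives.

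Cyp1b1 (chromosome 17, 79701537 to 79715061, minus strand), which encodes a related monooxygenase, was at 130.4, 106 and 109 CPM at 10 μg/kg and at 246, 286 and 224 CPM at 30 μg/kg. Its log2 fold change was 1.13 (0.73 to 1.54), with an adjusted p of 0.0566 in edgeR's test and of 2.09e-11 to 0.536 over the alternatives. The groups did not overlap, and the lower bound of the interval lay above 1.5-fold. Ahrr (chromosome 13, 74211118 to 74292331, minus strand) was at 75.2, 57.96 and 64.95 CPM at 10 μg/kg and at 139, 148 and 109 CPM at 30 μg/kg. Its log2 fold change was 1.00 (0.65 to 1.34), with an adjusted p of 0.0566 in edgeR's test and of 3.90e-05 to 0.536 over the alternatives. Here, too, the lowest mouse at 30 μg/kg stood above the highest at 10 μg/kg.

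Tiparp (chromosome 3, 65528410 to 65555518, plus strand), where a gene is also annotated on the other strand, was at 35.3, 39.98 and 39.1 CPM at 10 μg/kg and at 62.4, 57.2 and 48.7 CPM at 30 μg/kg. All 3 mice at the top dose lay above the 3 at the dose below, with a log2 fold change of 0.56 (0.24 to 0.87) and an adjusted p of 0.472 in edgeR's test. Non-overlap in this direction occurred in 742 of the genes tested (4.5%) and in the other direction in 709 (4.3%). Against vehicle, where it averaged 27.3 CPM, Tiparp rose at 30 μg/kg (log2 fold change 1.04, edgeR adjusted p = 1.84e-04), and at 10 μg/kg it had a log2 fold change of 0.48 (edgeR adjusted p = 0.0947). Both share the vehicle-treated mice. The vehicle-treated mice carry the first barcode set and the mice at 3, 10 and 30 μg/kg the second, so every value set against vehicle here crosses the sets. Among the 9 groups only that at 1 μg/kg holds both (1 mouse of the first set and 2 of the second), so a fit with a term for the barcode set, added after the data were seen, takes the difference between the sets from those 3 mice. In that fit Tiparp had 0.36 against vehicle at 30 μg/kg (edgeR adjusted p = 0.417) and -0.19 at 10 μg/kg (edgeR adjusted p = 0.753), so its call at 30 μg/kg was lost.

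**Figure D1:**
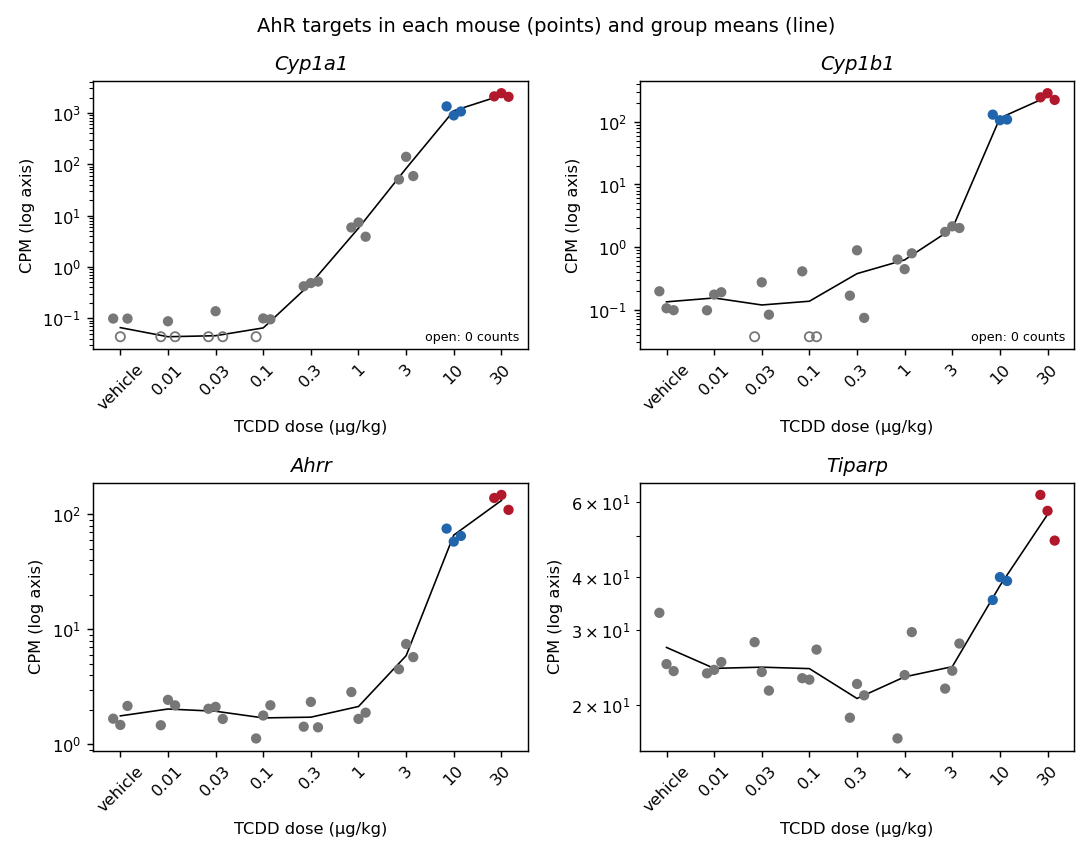
Level of Cyp1a1, Cyp1b1, Ahrr and Tiparp in CPM (log axis) in each of the 27 mice against TCDD dose, with 10 μg/kg in blue, 30 μg/kg in red, other groups in grey and a line through the group means. In all 4 genes the mice at 30 μg/kg lie above those at 10 μg/kg, and in Cyp1a1, Cyp1b1 and Ahrr the line is steeper from 3 to 10 than from 10 to 30 μg/kg.

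For Cyp1a1, Cyp1b1 and Ahrr the step from 10 to 30 μg/kg was smaller than the step from 3 to 10 μg/kg, with which it shares the mice at 10 μg/kg. Cyp1a1 averaged 83.1 ± 49.3 CPM (SD, n = 3) at 3 μg/kg, 1103 ± 226 CPM at 10 μg/kg and 2199.8 ± 198 CPM at 30 μg/kg. Cyp1b1 averaged 1.97 ± 0.203, 115 ± 13.3 and 252 ± 31.7 CPM at these doses. Ahrr averaged 5.901 ± 1.49, 66.03 ± 8.66 and 132 ± 19.95 CPM. In all 3 genes, then, most of the distance on a log scale had been covered at 10 μg/kg, while in linear units the top dose still added about as much as had been present at 10 μg/kg. With vehicle, Cyp1a1 had at most 1 read and Cyp1b1 at most 2 reads in a mouse. The difference between the steps was tested as the contrast of 30 minus 10 less that of 10 minus 3, and 3 of the genes tested passed at an adjusted p under 0.05 in edgeR's test (0.0182%), namely these 3. Ahrr and Cyp1b1 passed it under each alternative, whereas Cyp1a1 did not with DESeq2, in the second barcode set alone or without mouse 57. It was -4.73 ± 0.37 (log2, SE) for Cyp1b1 (edgeR adjusted p = 9.86e-08), with steps of 5.86 and 1.13. It was -2.48 ± 0.29 for Ahrr (adjusted p = 1.25e-04; steps of 3.48 and 1.00) and -2.73 ± 0.40 for Cyp1a1 (adjusted p = 0.00335; steps of 3.73 and 1.00). For Tiparp the steps were 0.63 and 0.56, and their difference was -0.074 ± 0.27.

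The other measured genes of the AhR battery, a list of 13 known targets of which 11 were tested, differed less. Nqo1, a quinone reductase, was at 79.1, 102 and 78.5 CPM at 10 μg/kg and at 90.7, 125 and 89.9 CPM at 30 μg/kg, so the groups overlapped, with a log2 fold change of 0.24 (-0.23 to 0.70). The UDP-glucuronosyltransferases Ugt1a6a, Ugt1a6b and Ugt1a7c had log2 fold changes of 0.046, 0.30 and 0.22, and since they share exons their counts are uncertain. Nfe2l2, which encodes the antioxidant regulator NRF2, had 0.14 (-0.089 to 0.38) and Xdh, xanthine dehydrogenase, had -0.080 (-0.34 to 0.18). Together with Ugt1a6a these were the 3 of the 11 whose interval lay within 1.5-fold. Ugdh, which makes UDP-glucuronate, had -0.20 (-0.66 to 0.25). The median of the 11 was 0.24, 0 were called, 4 were higher and 0 lower at an unadjusted p under 0.05 (3.56% and 2.44% of all genes tested), and 5 were without overlap above (4.5%). Cyp1a2 and Aldh3a1 were too low to test, with at most 7 and 5 reads in a mouse. The summed level of the 11 was 3254, 3080.1 and 2718 CPM at 10 μg/kg and 4090, 4672 and 4144 CPM at 30 μg/kg (exact permutation p = 0.1, the smallest that 3 against 3 allows). Without Cyp1a1, Cyp1b1, Ahrr and Tiparp the sum of the other 7 was 1669, 1979.9 and 1436 CPM and then 1537, 1754 and 1696 CPM, with overlapping groups (exact permutation p = 1).

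No gene of the receptor and its partners had an unadjusted p under 0.05 between the doses. Ahr was at 27.4, 26.2 and 29.3 CPM at 10 μg/kg and at 32.2, 27.7 and 27.9 CPM at 30 μg/kg, a log2 fold change of 0.084 (-0.18 to 0.35), with overlapping groups. Its nuclear partner Arnt had -0.051 (-0.19 to 0.084) and the chaperone Hsp90ab1 0.13 (-0.036 to 0.29). Of the 6 genes in this list 5 had an interval within 1.5-fold. Their summed level was 787, 806 and 779 CPM at 10 μg/kg and 854, 830.1 and 846 CPM at 30 μg/kg, without overlap (exact permutation p = 0.1, the smallest possible), and Hsp90ab1, which held most of the reads, was the 1 gene without overlap.

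**Figure D2:**
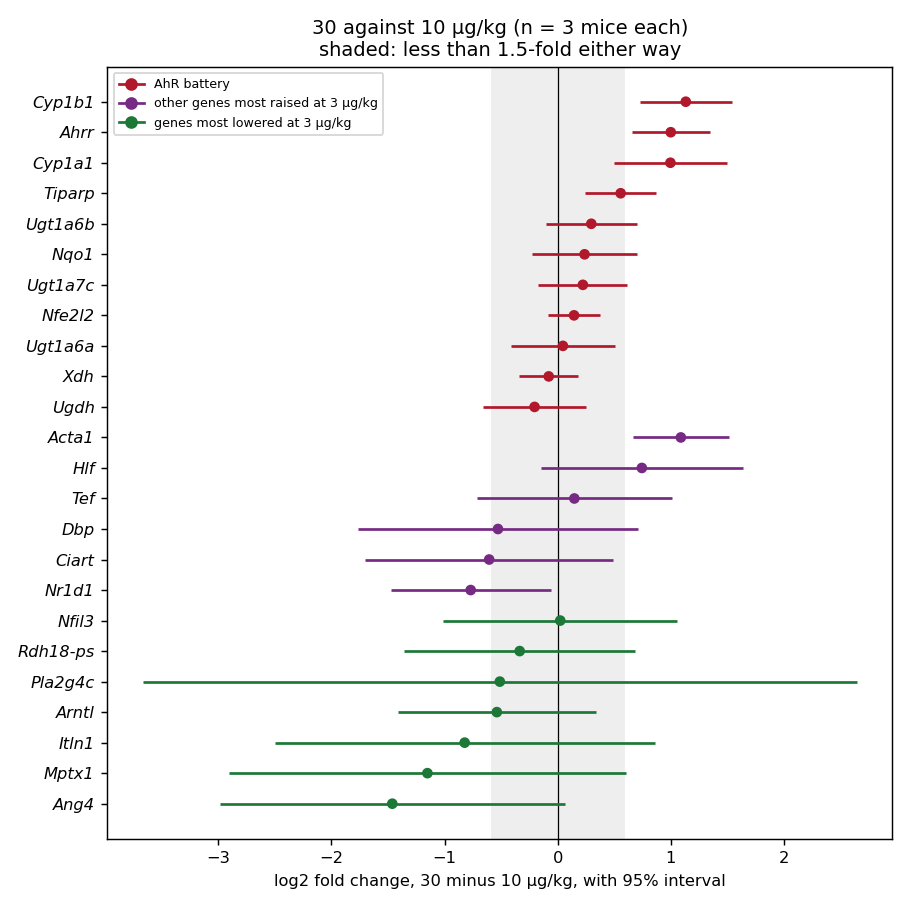
Log2 fold change of 30 minus 10 μg/kg with its 95% interval for the tested AhR battery (red) and for other genes with the largest rise (purple) or fall (green) at 3 μg/kg against vehicle, with 3 mice a group and differences under 1.5-fold shaded. The intervals of Cyp1b1, Ahrr and Acta1 lie wholly above the shading, whereas those of the clock genes Dbp, Tef and Hlf include 0.

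To ask whether a response already present at a lower dose went on, genes were chosen at 3 μg/kg against vehicle and read between 10 and 30 μg/kg, in other mice. The mice at 10 and 30 μg/kg entered the choice through the estimate of the spread, which all 27 mice share. At 3 μg/kg 115 genes passed the threshold (0.697%), of which 50 rose and 65 fell. The choice crosses the barcode sets. With the term for the barcode set edgeR called 2 genes at 3 μg/kg, both among the 115 (Cyp1a1 and the clock gene Hlf), all 115 kept their sign, and the median standard error over all genes went from 0.17 to 0.31. Between 10 and 30 μg/kg edgeR called 0 of the 115 in either direction, with 9 at an unadjusted p under 0.05 in the direction of the response and 3 against it, against 6% of all genes tested in either direction. DESeq2 and limma voom each called 3 of their own responders as growing. For 51 (44.3%) the interval lay within 1.5-fold, against 56.3% of all genes tested. Such an interval limits the step from 10 to 30 μg/kg and does not say that the response at 3 μg/kg persisted. Against vehicle, 35 of the 51 were called in the direction of the response at 10 μg/kg (1.78% of all genes tested were called there in either direction) and 40 at 30 μg/kg (6.16%), 34 at both and 10 at neither. These calls use the same vehicle-treated mice and cross the same barcode sets as the choice at 3 μg/kg. They are therefore not an independent check that the response persisted. Over all genes, 33 of the 294 calls at 10 μg/kg and 374 of the 1016 at 30 μg/kg were also made with the term for the barcode set. Pcsk4, a proprotein convertase named after its values were seen, was among the 10, with log2 fold changes against vehicle of -0.67 at 3, -0.064 at 10 and 0.029 at 30 μg/kg. For the other 64 the interval reached past 1.5-fold in at least 1 direction, and in both directions for 14 of them.

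The difference from 10 to 30 μg/kg had the sign of the response at 3 μg/kg in 76 of the 115 genes (66.1%), against 57.3% of all genes tested. The median further difference in the direction of the response was 0.15 on the log2 scale. Chosen at 1 μg/kg against vehicle instead (33 genes, 0.2%), 13 genes (39.4%) had the sign of the response from 10 to 30 μg/kg, against 52.3% of all genes tested, and the median was -0.028. Among the 50 genes that had risen, the median log2 fold change against vehicle was 0.90 at 3, 1.14 at 10 and 1.21 at 30 μg/kg. Among the 65 that had fallen it was -1.08, -0.96 and -1.05. These medians share the vehicle-treated mice, and the genes were chosen on the first of each.

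Some of the 51 genes whose interval lay within 1.5-fold are given here, named after their values were seen. All of those given were called against vehicle at both doses without the term for the barcode set, and Tns4 and Tlr4 also with it. Nr1d2, which encodes a clock repressor of the REV-ERB family, averaged 43.3 CPM with vehicle and 141 CPM at 3 μg/kg. It was at 151, 153 and 151 CPM at 10 μg/kg and at 153, 131 and 160.3 CPM at 30 μg/kg, a log2 fold change of -0.032 (-0.53 to 0.47). Tns4, a focal adhesion gene, was at 946, 659.7 and 705 CPM and then at 686, 877 and 680.1 CPM, with -0.043 (-0.39 to 0.30). In both genes the groups overlapped. Fabp2, the intestinal fatty acid binding protein, had 0.22 (-0.10 to 0.55), Hsd11b2, which inactivates glucocorticoids, 0.27 (-0.027 to 0.57) and Cipc, a clock-interacting protein, -0.059 (-0.36 to 0.24). Among the genes that had fallen, Tlr4, the receptor for bacterial lipopolysaccharide, was at 32.4, 33.5 and 27.1 CPM and then at 28.3, 26.7 and 24.1 CPM, with -0.23 (-0.52 to 0.055). Trim72 had 0.038 (-0.50 to 0.58), St5 0.030 (-0.35 to 0.41) and Ypel2 0.14 (-0.28 to 0.56).

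Acta1 was the responder outside the AhR battery with the smallest p between the doses. It encodes skeletal muscle α-actin (chromosome 8, 123891769 to 123894751, minus strand), and a gene is annotated on the other strand there. Its level was 50.3, 81.2 and 68.9 CPM at 10 μg/kg and 116, 162 and 147 CPM at 30 μg/kg. The groups did not overlap, and the log2 fold change was 1.09 (0.66 to 1.51), with an adjusted p of 0.12 in edgeR's test and of 9.48e-04 to 0.552 over the alternatives. The other 13 tested muscle markers had a summed level of 238 to 290.4 CPM with vehicle, 369 to 615 CPM at 3 μg/kg, 426, 499 and 601 CPM at 10 μg/kg and 646, 336 and 1278 CPM at 30 μg/kg. All 13 had a positive log2 fold change from 10 to 30 μg/kg. The groups at 10 and 30 μg/kg overlapped in this sum, and within 30 μg/kg mouse 66 had the highest Acta1 and the lowest sum of the others. The part of muscle RNA in the level of Acta1 was not tested. The step from 3 to 10 μg/kg was 1.87 on the log2 scale (edgeR adjusted p = 3.78e-05).

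Among the remaining responders with an unadjusted p under 0.05, also named after their values were seen, Tbc1d16 had risen at 3 μg/kg and was at 54.4, 72.9 and 57.3 CPM at 10 μg/kg and at 75.6, 90.99 and 98.7 CPM at 30 μg/kg. Its log2 fold change was 0.52 (0.23 to 0.82). Fndc5, the precursor of irisin, had fallen at 3 μg/kg and was at 3.16, 4.71 and 4.03 CPM and then at 2.23, 1.25 and 2.24 CPM, with -1.05 (-1.60 to -0.49). In both genes all mice at 30 μg/kg lay beyond those at 10 μg/kg in the direction of the response. Abcc2, which encodes the export pump MRP2, lay the other way. It averaged 2.63 CPM with vehicle and 10.96 CPM at 3 μg/kg, was at 19.5, 11.2 and 15.2 CPM at 10 μg/kg and at 8.85, 9.95 and 7.41 CPM at 30 μg/kg, with -0.81 (-1.60 to -0.012). All 3 mice at the top dose lay below the 3 at the dose below, though well above the mean with vehicle.

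**Figure D3:**
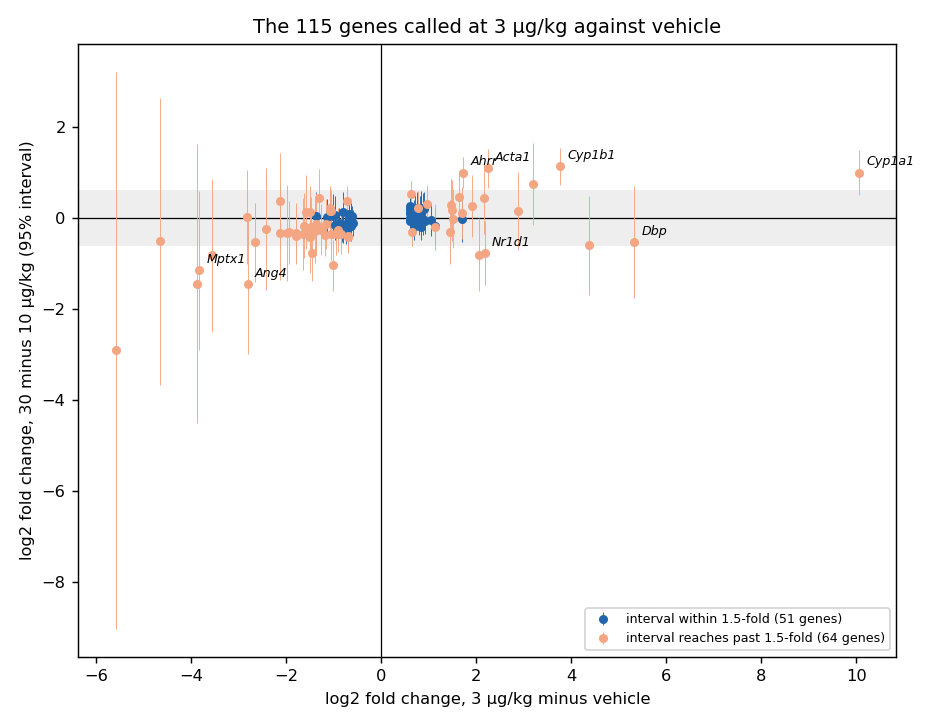
Each of the 115 genes called at 3 μg/kg against vehicle, with its log2 fold change there on the x axis and that of 30 minus 10 μg/kg with its 95% interval on the y axis, where shading marks differences under 1.5-fold. The intervals of 51 genes lie inside the shading and those of 64 do not, the axes compare different mice, and the x values of Cyp1a1 and Cyp1b1 depend on the fit because vehicle counts were at most 2.

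Many of the largest rises at 3 μg/kg were in circadian clock genes, which set daily rhythms through a feedback loop of activators such as ARNTL and repressors such as the PER and REV-ERB proteins. They showed no common direction from 10 to 30 μg/kg. Dbp, an output factor of the clock, was at 88.8, 65.8 and 71.7 CPM at 10 μg/kg and at 71.5, 29.4 and 55.9 CPM at 30 μg/kg, a log2 fold change of -0.53 (-1.76 to 0.71). Nr1d1, the other REV-ERB gene, was at 208, 125 and 140.1 CPM and then at 108, 80.3 and 89.2 CPM, with -0.77 (-1.48 to -0.063) and an adjusted p of 0.82 in edgeR's test. The groups overlapped for Dbp and not for Nr1d1, and both genes overlap a neighbour. Tef had 0.15 (-0.71 to 1.01) and Hlf 0.74 (-0.15 to 1.64), both without overlap above, and Ciart -0.61 (-1.70 to 0.49), without overlap below. The repressors Per2 and Per3, named after their values were seen, had 0.44 (-0.35 to 1.24) and 0.27 (-0.41 to 0.95), both without overlap above, while Arntl had -0.54 (-1.41 to 0.34) and Nfil3 0.022 (-1.01 to 1.05). Over the 17 clock genes the median was 0.022, 0 were called, 1 (Nr1d1) had an unadjusted p under 0.05, and 4 had an interval within 1.5-fold. Of the 17, 7 were without overlap, 4 above and 3 below, against 4.5% and 4.3% of all genes tested. Their summed level was 1365, 1304 and 1310.2 CPM at 10 μg/kg and 1372, 1243 and 1322 CPM at 30 μg/kg, against 673 to 739 CPM with vehicle.

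Several genes with the largest falls at 3 μg/kg encode secreted defence proteins, and their intervals were too wide to tell growth from levelling off. Ang4, an antimicrobial ribonuclease, averaged 259 CPM with vehicle and 37.1 CPM at 3 μg/kg. It was at 14.1, 18.1 and 27.1 CPM at 10 μg/kg and at 13.95, 2.93 and 4.22 CPM at 30 μg/kg, with a log2 fold change of -1.46 (-2.99 to 0.061). Mouse 65 lay just under the range at 10 μg/kg and mice 66 and 67 well below it. Mptx1, a mucosal pentraxin, was at 191, 13.8 and 122 CPM and then at 100.03, 14.7 and 31.9 CPM, with -1.15 (-2.90 to 0.60). Itln1, an intelectin that binds microbial sugars, had -0.82 (-2.50 to 0.86), Pla2g4c, a phospholipase, -0.51 (-3.67 to 2.64), and the pseudogene Rdh18-ps, which overlaps Rdh16, -0.34 (-1.35 to 0.68). Over 14 tested antimicrobial genes the median was -0.30, and 0 had an unadjusted p under 0.05. The median was 0.29 without mouse 59 and -0.61 without mouse 66, so that its direction rested on mouse 59.

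Between 3 and 10 μg/kg 8 genes were called (0.0485%), in a comparison that shares the mice at 10 μg/kg. The 5 that rose were Cyp1b1, Ahrr, Cyp1a1, Acta1 and Wfikkn2, a secreted inhibitor of growth factors, and the 3 that fell were Pcdh17, a protocadherin, Nid2, a basement membrane protein, and Plxnb1, a semaphorin receptor. Pcdh17 averaged 9.73 CPM at 3 μg/kg, was at 1.54, 1.28 and 1.19 CPM at 10 μg/kg and at 1.37, 0.9199 and 0.862 CPM at 30 μg/kg. Its steps were -2.86 and -0.32 (-0.97 to 0.33) on the log2 scale, and their difference of 2.54 had an adjusted p of 0.136 in edgeR's test, while DESeq2, and edgeR without a filter on low counts, called it. From 10 to 30 μg/kg Nid2 had -0.14 (-0.56 to 0.27), Plxnb1 -0.019 (-0.25 to 0.21) and Wfikkn2 0.38 (-0.17 to 0.92), and the test of the steps passed for none of these 3, so it is not shown that their steps differed. The groups at 10 and 30 μg/kg overlapped in these 4 genes.

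Tuft cell markers were lowest at 30 μg/kg. Tuft cells are rare chemosensory cells of the epithelium that signal through the channel TRPM5 and through eicosanoids. The summed level of the 14 tested markers was 64.9, 64.3 and 69.2 CPM at 10 μg/kg and 58.2, 39.1 and 56.03 CPM at 30 μg/kg, beside 109.8 to 131 CPM with vehicle and 83.9 to 99.5 CPM at 3 μg/kg. The groups did not overlap, and the exact two-sided permutation test over the 6 mice gave p = 0.1, the smallest it allows. The median log2 fold change was -0.58, 12 of the 14 were negative, 7 were lower and 1 higher at an unadjusted p under 0.05 (2.44% and 3.56% of all genes tested), and 0 were called. Leaving out any of the 6 mice gave a median between -0.72 and -0.41, and without mouse 65 edgeR called Gnat3 lower (adjusted p = 0.0239).

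Dclk1, a kinase used to define tuft cells, was at 20.8, 17.6 and 21.9 CPM at 10 μg/kg and at 16.3, 8.61 and 14.1 CPM at 30 μg/kg, a log2 fold change of -0.62 (-0.98 to -0.26), with an adjusted p of 0.472 in edgeR's test. The groups did not overlap, and mouse 66 was the lowest. Alox5ap, which activates 5-lipoxygenase, had -1.23 (-2.19 to -0.26) and Gnat3, gustducin, had -1.51 (-2.51 to -0.51). Among the members that, like Dclk1, were named after their values were seen, Trpm5 had -0.44 (-0.82 to -0.064), Alox5, 5-lipoxygenase, -0.73 (-1.29 to -0.17) and Avil, an actin-binding protein of the tuft, -0.15 (-0.48 to 0.18). Ptgs1, cyclooxygenase 1, which other cells also express, was the 1 gene higher at an unadjusted p under 0.05, with 0.69 (0.22 to 1.17). Dclk1 fell at both doses when set against vehicle, with a log2 fold change of -0.97 at 10 μg/kg (edgeR adjusted p = 0.00211) and -1.59 at 30 μg/kg (edgeR adjusted p = 4.98e-06), in comparisons that share the vehicle-treated mice and cross the barcode sets. With the term for the barcode set it had -1.35 (edgeR adjusted p = 0.0472) and -1.97 (edgeR adjusted p = 0.00194).

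Interferon-stimulated genes, which encode antiviral sensors and effectors, were lower at 30 than at 10 μg/kg throughout the list, with overlapping sums. All 19 had a negative log2 fold change, with a median of -0.47, 9 had an unadjusted p under 0.05 (2.44% of all genes tested were lower at that limit) and 0 were called. The summed level was 697, 629 and 493 CPM at 10 μg/kg and 498, 475 and 379 CPM at 30 μg/kg (exact permutation p = 0.2), beside 492 to 531 CPM with vehicle. Mice 57 and 58 stood above the range with vehicle, and mice 66 and 67 below it. The mice at 3 μg/kg, at 430 to 563 CPM, also lay on both sides of that range. Ifit1, which binds viral RNA, was at 36.3, 54.7 and 23.6 CPM and then at 27.04, 15.1 and 17.4 CPM, with -0.94 (-1.60 to -0.28), and Ifit3 had -0.94 (-1.85 to -0.033). Oas2, an oligoadenylate synthetase, had -0.74 (-1.36 to -0.11).

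Genes of fatty acid oxidation and ketogenesis were higher in 2 of the 3 mice at the top dose. The summed level of the 20 genes was 3693, 4432 and 3418 CPM at 10 μg/kg and 3726, 5153 and 5408 CPM at 30 μg/kg, so that mouse 65 lay within the lower group and mice 66 and 67 above it (exact permutation p = 0.2). The median log2 fold change was 0.25, 7 were higher and 0 lower at an unadjusted p under 0.05 (3.56% and 2.44% of all genes tested), and 0 were called. Angptl4, a secreted inhibitor of lipoprotein lipase, was at 1.45, 2.48 and 1.49 CPM and then at 1.29, 9.78 and 14.7 CPM, with 2.23 (0.92 to 3.55), and edgeR called it without mouse 65 (adjusted p = 0.0317). Pdk4, a kinase that spares glucose, had 0.98 (0.054 to 1.91) and Acot1, an acyl-CoA thioesterase, 0.74 (-0.042 to 1.53). Cpt1a, which admits fatty acids to mitochondria, had 0.33 (0.079 to 0.58). Adipocytes also express Angptl4 and Pdk4, and the part of the fat RNA of mouse 67 in these values was not tested.

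The adipocyte markers had the largest positive median of the lists, 1.44, and it rested on mouse 67. The summed level was 376, 458 and 366 CPM at 10 μg/kg and 367, 446 and 914 CPM at 30 μg/kg, and without mouse 67 the median was 0.081. Cfd, adipsin, was at 3.75, 4.54 and 2.16 CPM and then at 3.24, 14.7 and 51.7 CPM, so that mouse 65 lay inside the lower group and mouse 67 far above it. The median of the 14 muscle genes was 0.59, and -0.053 without mouse 67. Myh11, smooth muscle myosin, was at 70.7, 78.2 and 118 CPM and then at 135, 45.7 and 335 CPM. The medians of the fibroblast and endothelial lists were 0.15 and 0.43. Without mouse 67 they were -0.18 and 0.11, and without mouse 66 0.53 and 0.67.

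**Figure D4:**
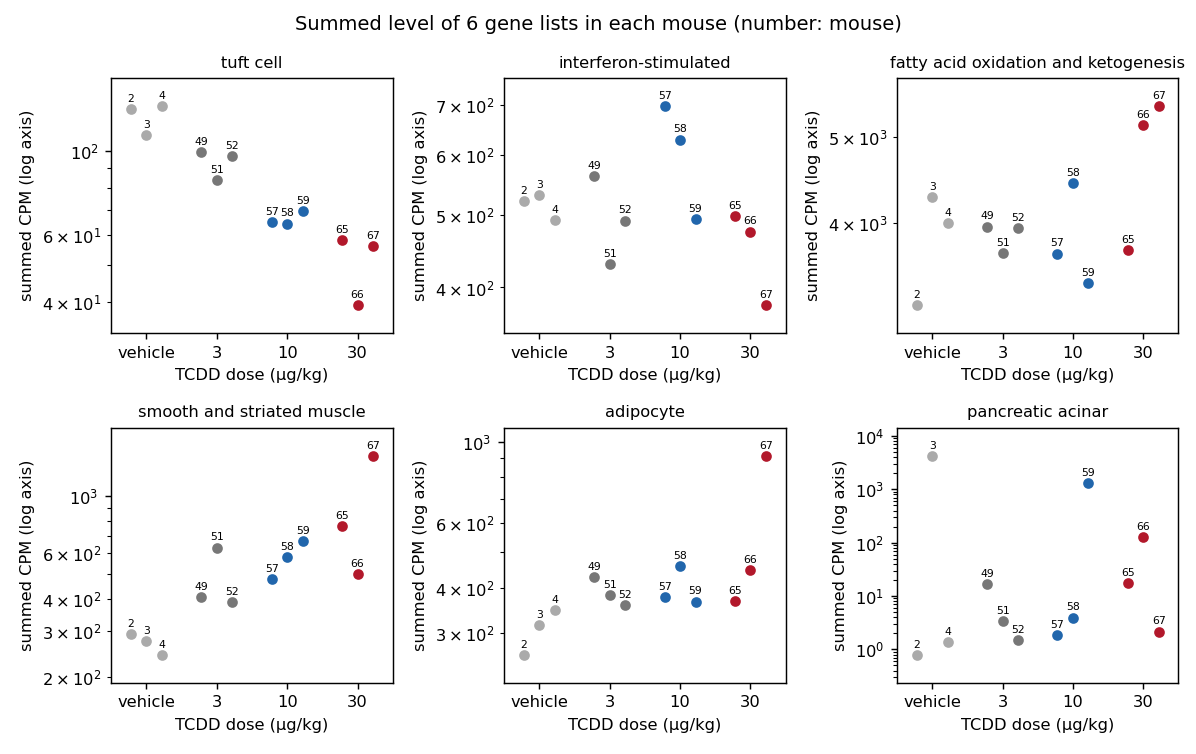
Summed CPM (log axis) of 6 gene lists in each mouse given vehicle, 3, 10 or 30 μg/kg, where numbers name the mice. Tuft cell sums at 30 μg/kg lie below those at 10 μg/kg, whereas the muscle and adipocyte sums stand apart in mouse 67 and the pancreatic acinar sum in mouse 59 and in mouse 3 of the vehicle group.

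The genes of cobalamin uptake gave no call. Cubn, which encodes the receptor cubilin and overlaps a gene on the other strand, was at 19.9, 43.8 and 31.5 CPM at 10 μg/kg and at 16.97, 9.199 and 20.8 CPM at 30 μg/kg, a log2 fold change of -1.02 (-2.04 to 0.00056), with an adjusted p of 0.821 in edgeR's test. The groups overlapped through mice 57 and 67. Amn, the membrane anchor of cubilin, had 0.067 (-0.81 to 0.94), Tcn2, the carrier transcobalamin, -0.21 (-0.44 to 0.014), Abcc1, which exports cobalamin, -0.061 (-0.26 to 0.13) and Lmbrd1, which releases it from lysosomes, 0.024 (-0.15 to 0.20). Of these 5 genes 3 had an interval within 1.5-fold. Their summed level was 254, 283 and 266 CPM at 10 μg/kg and 239.6, 232 and 252 CPM at 30 μg/kg, lower at the top dose without overlap (exact permutation p = 0.1, the smallest possible).

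The remaining epithelial lists held no called gene. The median was 0.029 for 15 NRF2 antioxidant genes, 0.024 for 16 goblet cell genes, -0.017 for 21 brush border genes, -0.090 for 11 stem cell genes and 0.025 for 20 cell cycle genes. It was -0.19 for 21 cholesterol genes, -0.16 for 18 ion transport genes and -0.15 for 13 enteroendocrine genes, of which 19, 15 and 11 were negative. The summed level of the ion transport genes was 20191, 18396 and 18486 CPM at 10 μg/kg and 18224, 16045 and 15585 CPM at 30 μg/kg, lower without overlap (exact permutation p = 0.1, the smallest possible). Of these 18 genes, however, 0 had an unadjusted p under 0.05 and 0 were without overlap. The interval lay within 1.5-fold for 10 of 10 pan-epithelial, 13 of 14 glycolysis, 15 of 21 cholesterol and 11 of 14 tight junction genes, and for 8 of 15 NRF2, 9 of 16 goblet cell, 7 of 21 brush border, 6 of 11 stem cell, 10 of 20 cell cycle, 8 of 18 ion transport and 1 of 13 enteroendocrine genes, against 56.3% of all genes tested. Within the lists, Lgr5, the receptor that marks crypt stem cells, was at 4.95, 5.74 and 5.29 CPM and then at 4.099, 2.43 and 4.05 CPM, without overlap, with -0.59 (-0.99 to -0.19). Ascl2, a stem cell transcription factor, lay the other way at 1.45, 1.11 and 1.79 CPM and then at 2.95, 1.25 and 2.59 CPM, with overlap and 0.64 (-0.052 to 1.33), and of the 11 stem cell genes 9 were negative. Mki67, a mark of cycling cells, had -0.50 (-0.99 to -0.013), the lowest of the cell cycle genes, and Mcm3, a replication helicase subunit, 0.40 (-0.088 to 0.89), the highest, with 11 of the 20 positive. In the NRF2 list Gsta4, a glutathione transferase, had 0.77 (0.30 to 1.23). Alpi, intestinal alkaline phosphatase, was at 48.7, 50.3 and 28.5 CPM and then at 42.1, 124 and 52.8 CPM, high in mouse 66, with 0.78 (0.16 to 1.41).

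Immune and stress lists were also without calls. The median was 0.083 for 15 macrophage genes, -0.035 for 14 lymphocyte genes, -0.024 for 12 plasma cell genes, -0.048 for 8 MHC class II genes, -0.035 for 17 unfolded protein genes and -0.012 for 12 immediate early genes. Glucocorticoid response genes had a median of 0.27, with 9 of 10 positive and sums of 1342, 1408 and 1367 CPM at 10 μg/kg and 1518, 1611 and 1717 CPM at 30 μg/kg, which did not overlap (exact permutation p = 0.1, the smallest possible). Among them Zbtb16, a zinc finger factor, was at 12.1, 2.74 and 11.2 CPM and then at 12.8, 15.2 and 27.7 CPM, with 1.09 (0.074 to 2.102), and Fkbp5, a co-chaperone of the glucocorticoid receptor, had 0.41 (0.046 to 0.78).

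**Figure D5:**
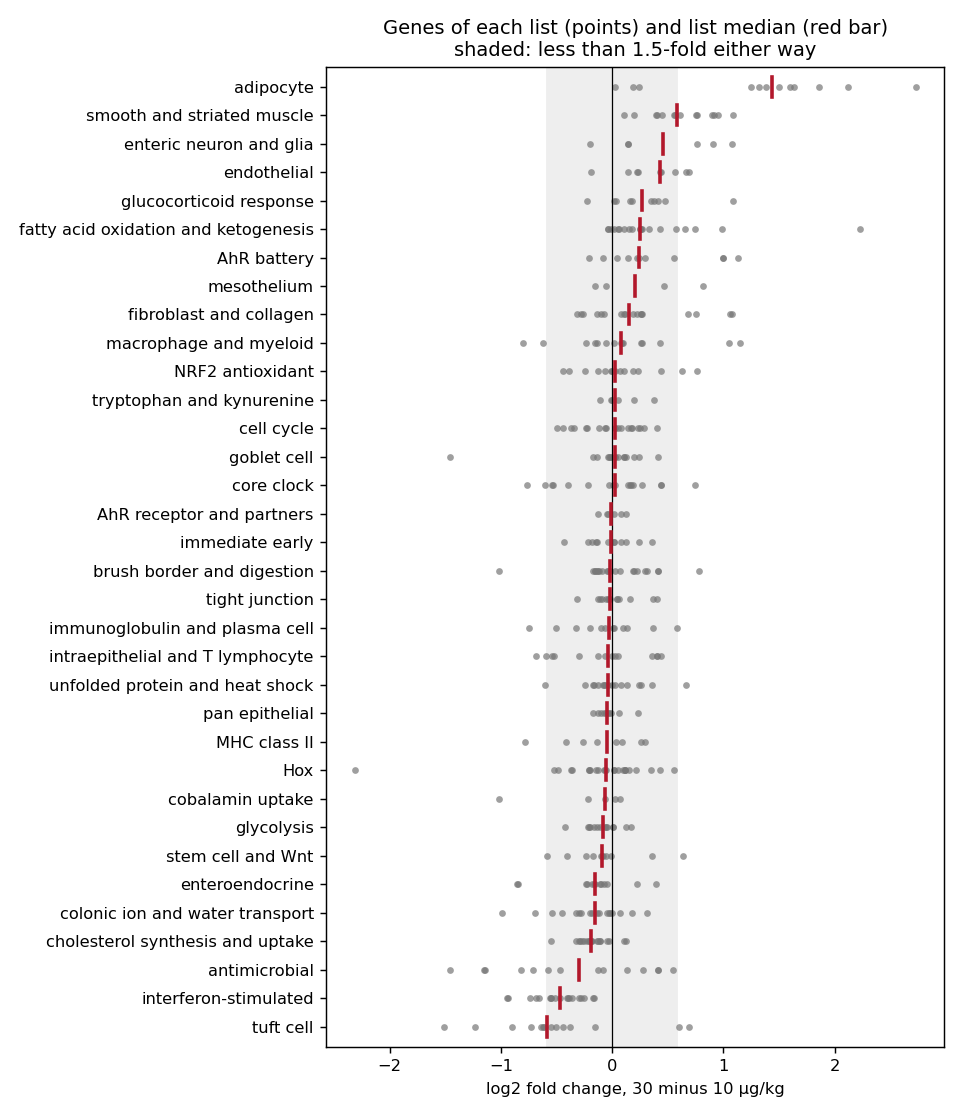
Log2 fold change of 30 minus 10 μg/kg for each tested gene (points) of the gene lists, with the list median as a red bar and differences under 1.5-fold shaded. Most medians sit close to 0, the adipocyte median is at 1.44, and the tuft cell and interferon-stimulated medians are at -0.58 and -0.47.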

How the data were processed

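Per the submitters' processing notes, the authors used FastQC 0.11.3, Trimmomatic 0.33, TopHat2 2.1.0, SAMtools 1.2.0, HTSeq 0.6.1 and DESeq, on libraries of the NuGen Ovation Mouse kit. The authors deposited raw counts of reads per gene, 46078 genes in each of the 27 libraries. Whether counting used strand is not given in the sources used here, so overlapping genes on opposite strands may share reads. In the 6 libraries, HTSeq left 31.1% to 32.0% of reads without a gene and 30.7% to 33.7% as not unique, and these stayed out of library sizes.

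Counts were fitted with edgeR 4.0.16 (R 4.3.3; TMM, filterByExpr with a minimum count of 10, quasi-likelihood test) over all 27 mice, which share 1 estimate of the spread (18 residual degrees of freedom), and p-values were adjusted by Benjamini-Hochberg over all 16496 genes tested. CPM are counts scaled by TMM library sizes. Single sums were compared by the exact two-sided permutation test, and the code was tested on simulated data. Alternatives used DESeq2 1.42.0, limma 3.58.1 (voom), other filters and scalings, covariates, mice left out and, added after the data were seen, a term for the barcode set. Named genes were the largest changes at 3 μg/kg, the AhR battery and cobalamin lists, the genes passing the test of the steps, and up to 3 genes of each other list by size of change, and others were named after their values were seen. Groups, members and lists were chosen with earlier results of these data known. The pancreatic and ribosomal lists were added after the data were seen. Some genes that the rule names are not reported here. Positions are from GENCODE M21 (GRCm38). Barcode sets were inferred from the names of the libraries, as the first or second occurrence of a barcode in the order of the samples.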

Additional observations from a re-analysis of the deposited data

Results flagged for a closer look

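In 3 genes the step from 10 to 30 μg/kg differed from the step from 3 to 10 μg/kg by a test of the difference itself. The difference (log2, SE) was -4.73 ± 0.37 for Cyp1b1, -2.48 ± 0.29 for Ahrr and -2.73 ± 0.40 for Cyp1a1, with adjusted p-values of 9.86e-08, 1.25e-04 and 0.00335 in edgeR's test. Cyp1a1 did not pass with DESeq2, in the second barcode set alone or without mouse 57. In all 3 genes every mouse at 10 μg/kg lay above every mouse at 3 μg/kg and every mouse at 30 μg/kg above every mouse at 10 μg/kg.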

How the results depend on the processing

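The count of genes called between 30 and 10 μg/kg was 0 with RLE scaling, a mean of at least 1 CPM, only the 6 mice, or the adjusted p alone, 4 with DESeq2 or no filter on low counts, 3 with limma voom or the Hox score, 2 with the stromal score, 1 in the second barcode set or with a term for the barcode set (added after the data were seen), and 0 to 32 with a mouse left out (32 without mouse 65, 1 without mouse 67). Growing responders numbered 3 with DESeq2, limma voom, no filter or the Hox score, 2 with the stromal score, 1 in the second barcode set and 0 to 3 with a mouse left out. Responders with an interval within the limit numbered 83 of 197 with DESeq2, 83 of 115 with a limit of 2-fold, 19 of 33 chosen at 1 μg/kg, 0 of 2 with the term for the barcode set, and 37 to 47 with a mouse left out. The test of the steps passed 5 genes without the filter (Pcdh17 and Rpl31-ps18 added), 3 with DESeq2 (Pcdh17 in place of Cyp1a1), 2 in the second barcode set and 2 to 5 with a mouse left out (Cyp1a1 lost without mouse 57, Apol9a and Mitd1 added without mouse 65). No paired analysis was possible because no replicate number occurs in more than 1 group.

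Of the named genes' values under alternatives, 2192 kept direction and side of the threshold, 28 passed it and 46 changed sign. The sign changed for Atp12a (0.42 with limma voom, 0.24 with the Hox score), Msln (0.10, 0.22), Amn (-0.060 with the Hox score, -0.034 with the stromal score), Nfil3 (-0.0079, -0.079), Ugt1a6a (-0.036 with the Hox score), Myh11 (-0.089 with the stromal score) and Plxnb1 (0.017). With a mouse left out the log2 fold change ranged from -0.14 to 0.0066 for Abcc1, -0.12 to 0.37 for Amn, -0.054 to 0.43 for Atf3, -0.11 to 0.0087 for Cipc, -0.0012 to 0.52 for Cldn4, -1.36 to 0.47 for Itln1, -0.11 to 0.45 for Kmo, -0.021 to 0.046 for Lmbrd1, -0.59 to 0.30 for Msln, -0.74 to 0.90 for Mttp, -0.23 to 0.52 for Nfil3, -0.097 to 0.051 for Nr1d2, -0.084 to 0.098 for Plxnb1, -0.79 to 0.32 for Rdh18-ps, -0.063 to 0.16 for St5, -0.17 to 0.13 for Tns4, -0.31 to 0.22 for Tph1, -0.21 to 0.47 for Trim72 and -0.21 to 0.028 for Xdh. Of the list medians under alternatives, 547 moved by less than the median standard error of the log2 fold changes in the list and 8 by more. The latter were the adipocyte median (0.081 without mouse 67, 0.60 with the stromal score), the pancreatic acinar median (-3.58 as fitted, -0.83 with limma voom, 3.58 without mouse 59), the fibroblast median (-0.28 with the stromal score), the cholesterol and plasma cell medians (-0.39 and -0.56 without mouse 65) and the brush border median (-0.48 without mouse 66). The causes were not tested. With 3 mice a group, an exact test cannot go below p = 0.1, and the 95% interval, which reached a median of 0.36 on the log2 scale to either side, limits what could be seen.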

Other observations

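Cytosolic ribosomal protein genes, a list of 92 added after the data were seen, were slightly higher at 30 than at 10 μg/kg. Their median log2 fold change was 0.19 against 0.0064 for all genes, with 82 positive and 10 negative. At an unadjusted p under 0.05, 49 were higher and 0 lower (3.56% and 2.44% of all genes tested). Without overlap above were 51 (4.5%), and 85 of the 92 had an interval within 1.5-fold (56.3%). They took 0.934 to 0.991% of the summed CPM at 10 μg/kg, 1.06 to 1.13% at 30 μg/kg and 0.893 to 1.05% at 3 μg/kg. None was called.

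Outside the lists, and named after their values were seen, Sox4, a transcription factor of progenitor cells, was at 47.9, 48.7 and 48.4 CPM at 10 μg/kg and at 36.96, 30.3 and 38.4 CPM at 30 μg/kg, a log2 fold change of -0.46 (-0.66 to -0.26). Slc6a14, an amino acid transporter, had -0.59 (-0.90 to -0.28) and Wls, which carries WNT proteins to the cell surface, -0.35 (-0.54 to -0.16). The groups did not overlap in these 3 genes, and none passed the threshold with all mice, while edgeR called Slc6a14 without mouse 65 (adjusted p = 0.0318). Cyp2e1, an ethanol-metabolising monooxygenase that adipocytes and liver also express, was at 4.69, 3.17 and 2.54 CPM and then at 3.96, 24.7 and 52.8 CPM, with mouse 65 in the range of the lower dose and mouse 67, which held the most fat RNA, the highest, and edgeR called it without mouse 65 (adjusted p = 0.0149) and without the filter on low counts.

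Hoxd13, the most posterior Hox gene shown here, was at 11.9, 0 and 7.61 CPM and then at 2.52, 0.418 and 0.862 CPM, and Atp12a, the colonic proton pump, at 188, 2.65 and 204 CPM and then at 92.05, 48.5 and 58.1 CPM. Mouse 58, with no Hoxd13 read, was also the lowest in Atp12a.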
